A study of Mus musculus with 24 samples.

Results

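The comparison described here is that of active with passive coping in stressed mice that received saline: the PFC transcriptomes of 4 AS animals against those of 4 PS animals, which are 8 of the 24 libraries of the series. All 24 libraries came from the prefrontal cortex (PFC) of male C57BL/6 mice, with 1 library from each mouse. They split evenly over 6 groups of 4, namely AS, PS and unstressed control animals, killed 6 h after an injection of saline or of dexamethasone (DEX, 2 mg/kg), a synthetic glucocorticoid. PS and AS animals both went through 30 days of chronic social stress, in which a mouse is defeated by aggressive partners, while control animals were not stressed. The stressed mice were sorted by their behaviour in an agonistic confrontation test held near the end of these 30 days. Animals that escaped and stayed active were called AS (active coping strategy), and animals that mostly froze were called PS (passive coping strategy). AS and PS are therefore not randomly assigned groups, and a difference that preceded the stress cannot be told apart from one that followed it. The libraries were made from poly(A) RNA of the whole PFC, so that fewer cells of a type and less RNA per cell cannot be told apart. Unless stated otherwise, values are normalized counts (reads on a gene divided by a size factor of the library), differences are AS minus PS on the scale of log2(normalized count + 1), and values per mouse are given in the order of AS mice 8, 14, 40 and 44 and of PS mice 2, 28, 62 and 68.

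The PFC weighs actions and outcomes and restrains the hormonal and behavioural stress response through its projections to the raphe, the amygdala and the hypothalamus. Glucocorticoids released during stress bind the glucocorticoid receptor Nr3c1 and the mineralocorticoid receptor Nr3c2, which enter the nucleus and switch genes such as Fkbp5, Per1 and Sgk1. Pyramidal neurons, which release glutamate, form most of this cortex, and interneurons releasing GABA, astrocytes, oligodendrocytes, microglia and vessel cells make up the rest. All of these contribute RNA to a bulk library.

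The tissue label fitted the markers: the glutamate transporter Slc17a7 of cortical pyramidal neurons stood between 41898 and 47590.2 normalized counts in the 8 libraries, and all 10 pyramidal neuron markers looked at were measured. Eomes, a marker of the mitral and tufted cells of the olfactory bulb, was at 249 in PS mouse 2 and at 223 in AS mouse 14, but at 39.0 or less in the other 6. Library depth, as reads on genes, spanned 23481722 to 40268349 in AS animals and 21493398 to 59439645 in PS animals. The medians were 34242531.5 in AS and 24008145.5 in PS animals, and in mice with DEX they were 37876626 and 24187702. Depth at the median thus went with phenotype under both treatments. AS mouse 44 stood apart from its group: the chi-square per gene between its reads and those of AS mice 8, 14 and 40 was 34.5 to 46.9, against 15.95 to 17.1 among these 3, and its share of reads from mitochondrially encoded genes was 6.53%, the highest of the 8. Among PS animals the same measure ran from 12.6 to 56.0, and mice 2 and 62 shared high values of a few RNAs that are described with Lars2.

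The expression levels of AS and PS animals with saline were close to each other, and no gene passed the test. Of 14074 genes, 0 (0%) reached a Benjamini-Hochberg adjusted p under 0.1 in limma, the smallest adjusted p was 0.21 (Bicra and Gm15459), and 5 genes had one under 0.3. At an unadjusted limma p under 0.05 there were 671 genes (4.77% of those tested), 428 of them (3.04%) higher and 243 (1.73%) lower in AS animals. The 4 AS and the 4 PS values did not overlap for 402 genes that were higher in AS animals (2.86%) and for 332 that were lower (2.36%). A gene with the median standard error of 0.101 had a 95% interval reaching 0.21 to either side of its log2 difference. For 94.2% of the genes this interval excluded a 2-fold difference in either direction, and for 85.9% it excluded a 1.5-fold difference; for the 12018 genes averaging 100 normalized counts or more these shares were 99.6% and 95.9%. Accordingly, 53 genes differed by more than 2-fold in the fitted value, 45 of them averaging under 100 normalized counts.

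**Figure D1:**
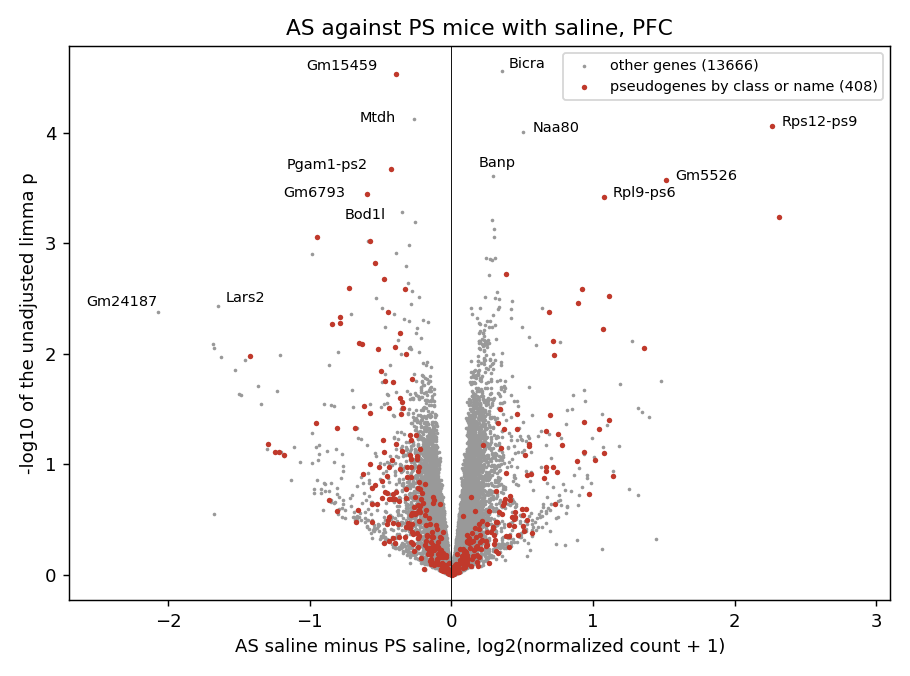
AS minus PS difference of all 14074 genes with saline (x axis, log2 scale) against the unadjusted limma p (y axis, -log10). The points fill a narrow column around 0, and the well separated points at the sides are mostly genes with low counts, among them many of the 408 pseudogenes drawn in red.

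Library 44 of the AS animals weighed on these counts. Without it, 5 genes were called (Bicra, Mtdh, Gm15459, Ociad2 and Ppig), 1141 genes had an unadjusted p under 0.05 and the share of them that was higher in AS animals fell from 63.8% to 52.6%, whereas without AS mouse 8 the number dropped to 421. With both AS mouse 44 and PS mouse 2 left out, 1 gene was called (Bicra).

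The highest-ranked gene was Bicra (ENSMUSG00000070808.4, chr7:15970672-16047921 in mm10), which encodes a subunit of the noncanonical BAF chromatin-remodelling complex. Its values were 919, 861, 928 and 735 in AS animals and 692, 686, 637 and 664 in PS animals, 861 ± 89.0 against 669.8 ± 24.8 (SD, n = 4). Every AS animal was above every PS animal, and the unstressed controls with saline, at 926, 905, 837 and 969, lay with the AS animals. The difference was 0.36 (SE 0.069, 95% interval 0.21 to 0.50), with a limma adjusted p of 0.21. The two-sided exact permutation p was 0.029, the smallest that 4 against 4 libraries can give. Every gene without overlap between the groups has this value, so it tests nothing beyond the lack of overlap. Another BAF subunit, the zinc finger protein Dpf2, was also among the 12 leading genes on the higher side, at 1396, 1376, 1575 and 1309 in AS and 1115, 1154, 1289 and 1225 in PS animals, a difference of 0.24 (SE 0.066). In Dpf2 the lowest AS value, of mouse 44, was just above the highest PS value, of mouse 62. BAF subunits were not examined as a list. In a separate list of 45 measured chromatin-modifying enzymes, which holds no BAF subunit, 23 were higher and 22 lower in AS animals. Its median was 0.017 beside -0.0022 over all genes, and the one with an unadjusted p under 0.05 was the acetyltransferase Kat2a at 0.12.

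Naa80 (chr9:107578887-107584050), the enzyme that acetylates the N-terminus of actin, was clearly separated. Its values were 313, 321, 313 and 302 in AS animals and 245, 209, 219 and 207 in PS animals. The AS animals lay close to each other and to the control mean of 305 ± 17.3 (SD, n = 4), and the PS animals were below both. The difference was 0.51 (SE 0.11, 95% interval 0.28 to 0.73, limma adjusted p 0.28). Banp, a nuclear protein that binds unmethylated CGCG elements in promoters, stood at 731, 806, 805 and 772 in AS and 668, 647, 622 and 600.2 in PS animals, a difference of 0.30 (SE 0.069). Here the control animals, at 713, 680.0, 669.8 and 721, lay between both phenotypes. Prrt1, an auxiliary protein of AMPA-type glutamate receptors, was at 4975, 5161, 5247 and 4982 against 4015, 4186, 3961 and 4332, a difference of 0.30 (SE 0.084) in one of the most abundant of these transcripts.

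The other members of the 12 leading genes on the higher side were the pseudogene-named locus Rpl9-ps6 (1.07), Proser1 (0.28), the lipoyltransferase Lipt1 (0.30), the kinase-adaptor family member Mob3a (0.30), 2310061I04Rik (0.27), Rfxank (0.29), which is part of the RFX complex on promoters of MHC class II genes, and the pseudogene Gstp-ps (0.38). All 12 were chosen by their p and their lack of overlap, so their size and separation describe them and test nothing. On the log2 scale the control mean was nearer to the AS than to the PS mean for 11 of the 12. The same held for 69.0% of all genes with an unadjusted p under 0.05 and for 50.7% of all genes.

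**Figure D2:**
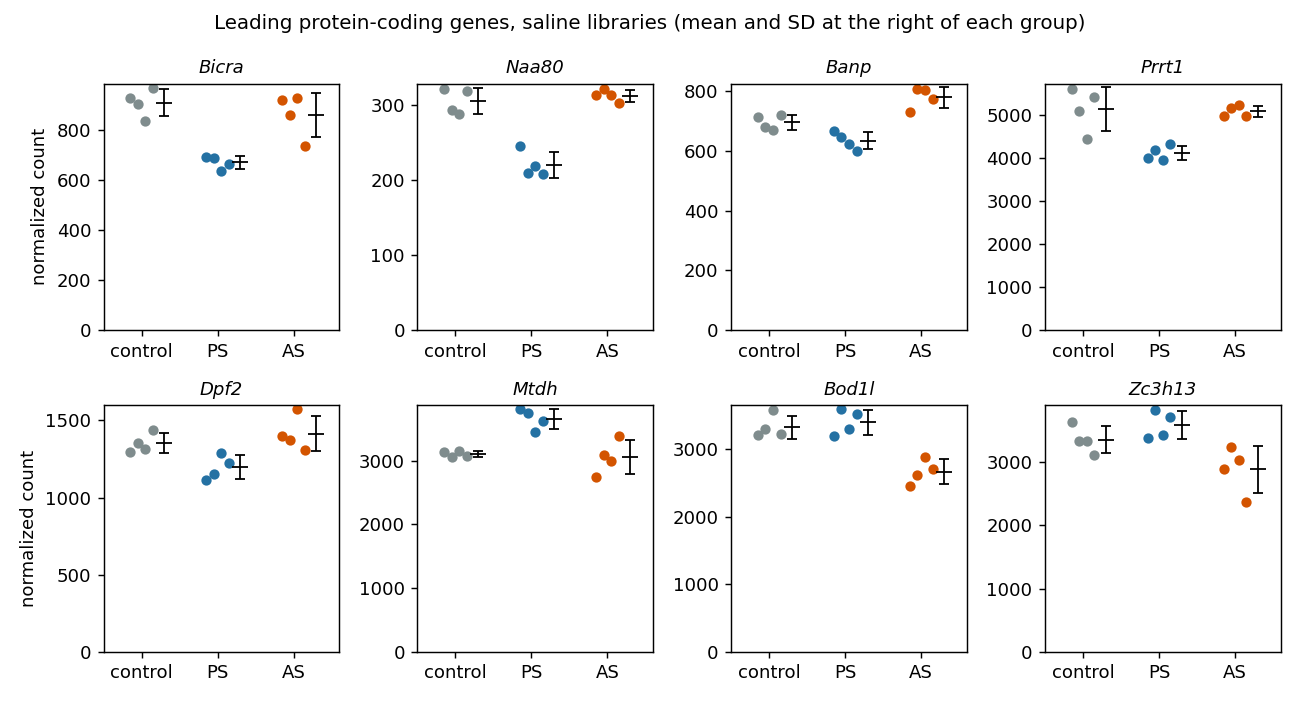
Normalized counts (y axis, from 0) of 8 leading genes in the saline libraries of control, PS and AS animals; each point is 1 mouse, and the bar to the right of each group gives mean and SD. Bicra, Naa80, Banp, Prrt1 and Dpf2 are higher and Mtdh, Bod1l and Zc3h13 lower in all 4 AS animals than in all 4 PS animals.

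Among the genes that were lower in AS animals, Mtdh (chr15:34082694-34145624), which encodes the RNA-binding membrane protein metadherin, came first of the protein-coding ones. It was at 2747, 3088, 2997 and 3391 in AS animals, at 3811, 3751, 3456 and 3635 in PS animals and at 3145, 3058, 3163 and 3079 in controls. Controls and AS animals overlapped and the PS animals were above both. The difference between AS and PS was -0.26 (SE 0.055, 95% interval -0.38 to -0.15, limma adjusted p 0.28). Bod1l, which protects stalled replication forks and takes part in histone H3 methylation, was at 2455, 2617, 2888 and 2702 against 3188, 3588, 3295 and 3509.9, a difference of -0.35 (SE 0.087). In this gene the controls, at 3207, 3288, 3569 and 3224, lay with the PS animals instead. Zc3h13, a subunit of the writer complex for N6-methyladenosine in RNA, was at 2896, 3237, 3039.6 and 2379 against 3382, 3829, 3437 and 3722, a difference of -0.32 (SE 0.09), its lowest value being that of AS mouse 44. Pura, a protein that binds purine-rich single strands and is carried with RNA into dendrites, was at 2241, 2743, 2692 and 2347 against 3262, 3117, 3053 and 2957, a difference of -0.31 (SE 0.091).

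These 4 were the protein-coding genes among the 12 leading genes on the lower side. Of the others, 7 were pseudogenes and 1 was the lncRNA Rab10os (-0.39), which carries the name of an opposite strand transcript of Rab10, and whose reads cannot be told apart from those of Rab10 unless strand was used in counting. The pseudogene Gm15459 (chr5:5781615-5783555) was at 973, 904, 863 and 1069.5 in AS and 1278, 1216, 1202 and 1277 in PS animals, a difference of -0.39 (SE 0.075, 95% interval -0.54 to -0.23, limma adjusted p 0.21), with controls at 925, 903, 902 and 1001. PS animals were again the group that stood apart. Gm6793 was at 88.6, 107, 83.7 and 85.7 against 150.3, 133, 139 and 129, and Pgam1-ps2 at 369.6, 353, 293 and 351 against 499, 452, 439 and 444. The remaining pseudogenes were Cbx3-ps6 (-0.58), Gm3888 (-0.54), Gm12960 (-0.48) and Gm10052 (-0.33). Reads of a pseudogene can be shared with its parent gene or with further copies, and from gene counts they cannot be reassigned. The control mean was nearer to AS than to PS for 10 of these 12 genes.

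A count model on the reads recovered from the table gave a slightly longer list. DESeq2 called 11 of 14060 genes (0.0782%), 5 of them higher in AS animals: Bicra, Naa80, Banp, Rpl9-ps6 and Rps12-ps9 on the higher side and Gm15459, Mtdh, Pgam1-ps2, Gm6793, Lars2 and Gm24187 on the lower side. edgeR's quasi-likelihood test on the same reads called 0, with 664 genes at an unadjusted p under 0.05. Lars2, the leucyl-tRNA synthetase of mitochondria, was at 6373, 5090.3, 2232 and 7699 in AS animals and at 51003, 7637, 28803 and 4808 in PS animals. Only PS mice 2 and 62 were high, and the other 2 PS animals overlapped the AS animals. The difference of -1.65 (SE 0.51) ranged from -2.20 to -1.07 when each of the 8 libraries was left out in turn. Gm24187 and Gm24270, each annotated as a miRNA gene, split the same way: Gm24187 was at 102, 75.3, 17.0 and 88.3 in AS and 1115, 106, 567 and 56.8 in PS animals, and Gm24270 at 417, 335, 116 and 373 against 3449, 387, 1889 and 256. Whether the 3 transcripts share a source in these 2 libraries was not tested.

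The largest fitted differences of genes averaging 10 normalized counts or more mostly followed a few animals rather than whole groups. On the higher side these were Gm5526, Ms4a15 and Rps13-ps2, and on the lower side Gm24187, Gm24270 and Gh, the growth hormone gene of the pituitary. Gh was at 1.18, 0, 14.3 and 0 in AS and at 0, 0, 88.3 and 37.8 in PS animals, so that its -1.67 (SE 1.52) rested on PS mice 62 and 68. Ms4a15 was at 23.6, 152, 11.6 and 1.75 against 147, 6.08, 1.28 and 0, high in AS mouse 14 and PS mouse 2, the same 2 libraries in which Eomes was high. Gm5526 was the one of the 6 whose groups did not overlap, at 21.3, 20.9, 13.6 and 28.0 against 6.37, 9.36, 3.84 and 7.36, a difference of 1.52 (SE 0.35). Rps13-ps2 was at 20.1, 36.5, 17.0 and 39.4 against 7.64, 14.0, 3.84 and 19.97, with AS mouse 40 and AS mouse 8 close to PS mouse 68.

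The receptors for corticosteroids differed little between the phenotypes. Nr3c1, the glucocorticoid receptor, was at 2869.6, 2929, 2972 and 2666 in AS and 2934, 3158, 2952 and 3047 in PS animals, a difference of -0.081 (95% interval -0.29 to 0.13). Nr3c2, the mineralocorticoid receptor, was at 1177, 1037, 1189 and 892 against 1088, 1197, 1158 and 994, with a difference of -0.053 (95% interval -0.24 to 0.13). Both intervals lie inside a 1.5-fold difference, and the groups overlapped. Fkbp5, the immunophilin that lowers the hormone affinity of the receptor and is itself induced by it, was at 819.5, 774, 878 and 1088 against 938, 803, 979 and 803, with a difference of 0.0082 (95% interval -0.21 to 0.23). The peptide Crh, at 168, 148, 189 and 207 against 181, 199.8, 123 and 199.7, differed by 0.032 (95% interval -0.32 to 0.39). Of the 16 measured receptors, chaperones and CRH system genes, the chaperone Hsp90aa1 had an unadjusted p under 0.05, at 22569, 25353, 23609 and 31665 against 29497, 28465, 29120.2 and 28715, and Hsd11b1, which regenerates active corticosterone, differed by 0.20 (SE 0.14). In Hsp90aa1 the AS animals 8, 14 and 40 were below all PS animals, and AS mouse 44 was above them.

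No target of the glucocorticoid receptor was called. Of 26 target genes, 20 were higher in AS animals (49.3% of all genes were) and 2 of these had an unadjusted p under 0.05 (3.04% of all genes), with a median of 0.10 beside -0.0022 over all genes. The 2 were Arl4d, a small GTPase of the ARF family, at 250.3, 244, 251 and 299 against 175, 227, 229 and 219, and the clock repressor Per1, at 4169.7, 3442, 3725 and 3691 against 3319, 3319, 3684 and 2876. Arl4d did not overlap between the groups, and in Per1 AS mouse 14 lay within the range of the PS animals. Over the libraries left out in turn the median of the list ran from 0.027 (without AS mouse 44) to 0.15, and in the mice with DEX it was 0.0028, with 13 of the 26 higher in AS animals.

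Per1 is also part of the circadian clock, in which Clock and Bmal1 bind E-boxes and switch on Per, Cry, Dbp and Ciart, and the Per, Cry and Ciart proteins then hold them back. Of 19 clock genes, 12 were higher in AS animals, and 4 of these and none of the lower ones had an unadjusted p under 0.05. Of all genes 49.3% were higher, and 3.04% were higher and 1.73% lower at this threshold. Dbp, a transcription factor driven by Clock and Bmal1, was at 4124, 4022, 4253 and 4333 in AS and 3836, 3430.0, 3992 and 3060.0 in PS animals, a difference of 0.23 (SE 0.086). It was the one clock gene without overlap (2.86% of all genes were higher without overlap), and AS mice lay in a narrow band whereas PS mouse 68 was lowest. Ciart, a repressor that acts on Clock and Bmal1, was at 824, 819.8, 888 and 965 against 740.3, 619, 944 and 609, a difference of 0.28 (SE 0.12), with PS mouse 62 among the AS animals. Bhlhe40, which was named after its values were seen, was at 4611, 4933, 4784 and 5245 against 4370.2, 4541, 4692 and 3915. In animals with DEX the AS minus PS difference of Dbp was 0.31 and that of Ciart 0.32. Injections were given at a set hour in the morning and the mice were killed 6 h later; the order of single mice within that time was not used here, and its part in these values was not tested.

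The promoters of Per1 and Ciart are shown because they hold the canonical E-box CACGTG (a further Per1 promoter in the table, at chr11:69099902-69100201, has no match), which is its own reverse complement and is printed in capitals. The sequences run 5′ to 3′ in the direction of the gene, from 250 bases before to 50 after the start site, and come from RefSeq on GRCm38.p6, the build of the files: Per1 at chr11:69098699-69098998 on the plus strand, with 1 E-box that begins 166 bases before the start, and Ciart at chr3:95882179-95882478 on the minus strand, with 3 that begin 116, 58 and 44 bases before it.
Per1: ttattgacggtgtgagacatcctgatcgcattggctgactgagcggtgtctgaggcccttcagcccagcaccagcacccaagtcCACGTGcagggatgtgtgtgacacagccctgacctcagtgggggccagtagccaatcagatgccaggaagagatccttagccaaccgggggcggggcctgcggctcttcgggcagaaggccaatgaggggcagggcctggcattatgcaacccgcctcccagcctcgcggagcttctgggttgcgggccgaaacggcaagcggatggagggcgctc
Ciart: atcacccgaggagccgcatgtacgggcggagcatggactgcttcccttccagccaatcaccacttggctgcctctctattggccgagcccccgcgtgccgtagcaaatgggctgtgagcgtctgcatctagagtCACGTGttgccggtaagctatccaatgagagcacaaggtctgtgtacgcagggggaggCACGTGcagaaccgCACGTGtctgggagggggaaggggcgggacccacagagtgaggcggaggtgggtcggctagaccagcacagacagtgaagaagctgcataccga
Of the 32851 RefSeq promoters of this length, 7.15% held the motif. The clock genes had 23 such promoters, of which 6 held it. Counted by gene, which is a different unit, 17 of the 19 tested had a promoter in the table and 5 held the motif in any of theirs. Dbp had no match in this window.

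The lists of neuronal activity genes and neurotransmitter systems had small medians, which leaned up in some lists and down in others. Of 28 immediate early genes, 18 were higher in AS animals, with a median of 0.086, and 1 had an unadjusted p under 0.05 in each direction. With DEX the median was -0.092 and 5 of the 28 were higher. The nuclear receptor Nr4a1 was at 1986, 1858, 1532 and 1998 against 1569.7, 1669, 1477 and 1449, and the synaptic scaffold Homer1 was at 4349, 4414, 4659.7 and 4256 in AS and 4960.1, 5739, 4666 and 5292 in PS animals. Homer1 did not overlap, whereas Nr4a1 did in AS mouse 40. Fos was at 213, 209, 91.2 and 266 against 153, 210.1, 216 and 98.8, its spread within each group wider than its difference of 0.16 (95% interval -0.49 to 0.82). Bdnf, the neurotrophin released with activity, was at 913, 999, 929 and 1162 against 975, 1159.9, 925 and 1160.5, a difference of -0.076 (95% interval -0.34 to 0.19). In the list of 13 neurotrophin signalling genes 11 were lower in AS animals, with a median of -0.059 and no member at an unadjusted p under 0.05.

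Serotonin reaches the PFC from the raphe. Htr2a, an excitatory receptor of pyramidal neurons, was at 1617, 1458, 1561 and 1469 in AS and 1952, 1854, 1710.2 and 1890.0 in PS animals. The inhibitory receptor Htr1a was at 355, 382, 338 and 386 against 389.9, 426, 399 and 400.5. Both were lower in all 4 AS animals than in all 4 PS animals, with differences of -0.28 (SE 0.16) and -0.15 (SE 0.13) and unadjusted limma p of 0.092 and 0.27. Htr3a, the ion channel among the serotonin receptors and a marker of a class of interneurons, went the other way, at 391, 251, 361 and 285 against 249.7, 237, 237 and 225, a difference of 0.42 (SE 0.17). AS mice 8 and 40 were the high ones. Of the 11 serotonin genes measured, 4 were higher and 7 lower, with a median of -0.067. In mice with DEX, none of the 3 reached an unadjusted p under 0.05 (log2 differences -0.0059, 0.037 and 0.10).

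Among acetylcholine and histamine receptors, 6 of 12 were higher in AS animals. The muscarinic receptor Chrm4 was the one without overlap (2.86% of all genes were higher without overlap), at 640.0, 648, 594 and 607 against 538, 548, 560.2 and 489, a difference of 0.22 (SE 0.074). The histamine receptor Hrh1 was at 628, 555, 523 and 432 against 428, 499, 437 and 467, highest in AS mouse 8 and overlapping through AS mouse 44. In the catecholamine list 8 of 11 were higher, among them the noradrenaline receptor Adra2a (0.26), which did not pass an unadjusted p of 0.05. In the opioid and endocannabinoid systems 9 of 13 were higher, the peptide precursors Pnoc (0.28) and Penk (0.24) having the smallest p.

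The receptor and channel lists of fast transmission had medians slightly below 0, and without AS mouse 44 they were nearer to 0 or above it. Of 23 glutamate receptor subunits 15 were lower in AS animals, and Gria2, the AMPA receptor subunit that makes the channel impermeable to calcium, was at 16267, 19389, 19197 and 20269.9 in AS and 22108, 21214, 20612 and 22876 in PS animals, without overlap and with a difference of -0.21 (SE 0.085, unadjusted limma p 0.02). Of 14 GABA receptor subunits 11 were lower, with a median of -0.078, and of 69 potassium channel subunits 47 were lower, with a median of -0.049. No member of either list had an unadjusted p under 0.05. Of 27 sodium, calcium and HCN channel genes 16 were lower, and 4 of these did not overlap (2.36% of all genes were lower without overlap). None had an unadjusted p under 0.05, and the median of this list was -0.045. Without AS mouse 44 this last median was 0.062, that of potassium channels -0.011, that of glutamate receptors -0.0057 (from -0.039) and that of GABA receptors -0.059. In mice with DEX 12 of the 14 GABA receptor subunits were higher in AS animals, with a median of 0.063, and the medians of the other 3 lists lay between -0.0039 and 0.0073. In the list of synaptic vesicle release the direction was mixed, 16 of 31 being higher. Its members with an unadjusted p under 0.05 were Vamp2, the vesicle SNARE, at 34931, 39796, 34368 and 39667 against 31840.2, 33369, 31606 and 33762, and Syn1, which tethers vesicles to actin, at 25233, 28469, 25346 and 26354 against 23068, 23064, 23179 and 24595. Both were higher in all 4 AS animals than in all 4 PS animals. Of all genes, 3.04% were higher at an unadjusted p under 0.05 and 2.86% were higher without overlap. The differences of Vamp2 and Syn1, 0.19 and 0.17, were also 0.19 and 0.17 in mice with DEX.

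No cell adhesion gene was called, and the list medians were nearer to 0 without AS mouse 44. Of 68 protocadherins and cadherins, 50 were lower in AS animals and 3 of these had an unadjusted p under 0.05 (all genes: 1.73% lower), with a median of -0.078. Cdh12 was at 389.7, 379, 433 and 304 against 454, 471, 539 and 522, without overlap. The median of this list was -0.0046 without AS mouse 44, in which Cdh12 was lowest, and 0.018 without AS mouse 44 and PS mouse 2. With DEX 35 of the 68 were higher in AS animals. Of 41 axon guidance genes 26 were lower, with a median of -0.062 that was -0.022 without AS mouse 44, and with DEX 23 were higher.

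**Figure D3:**
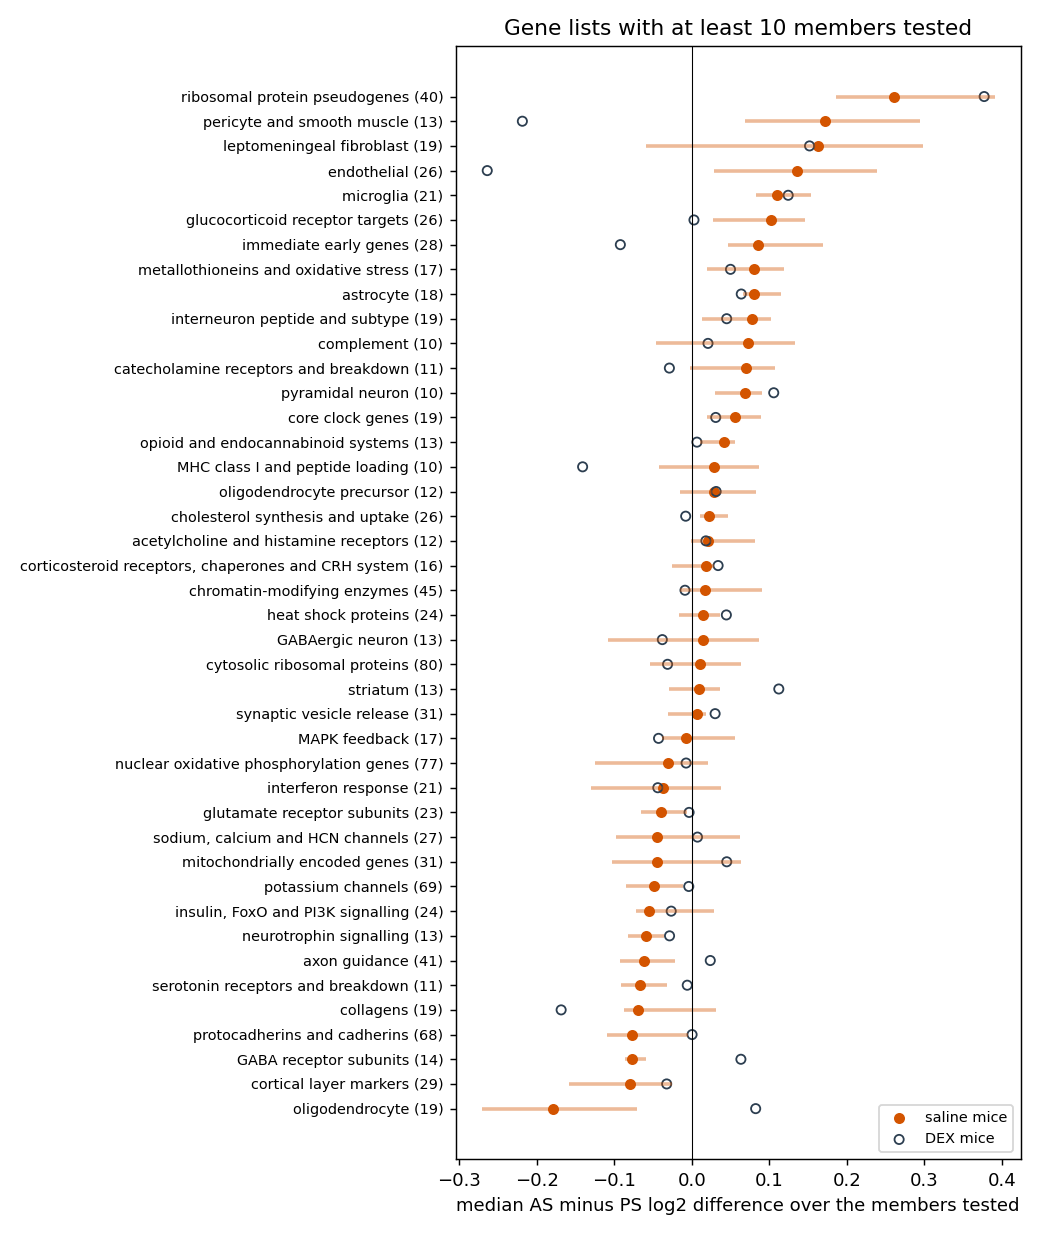
Median AS minus PS log2 difference (x axis) of the gene lists with at least 10 members tested; filled points are mice with saline, the bar gives the range when each of the 8 libraries is left out in turn, and open points are mice with DEX. Most saline medians lie within 0.1 of 0, and the vessel and oligodendrocyte lists stand on opposite sides of 0 in saline and in DEX mice.

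Several glial and vascular lists had medians past 0.1 in size, and single animals weighed on most of them. Of 19 oligodendrocyte markers, 17 were lower in AS animals, with a median of -0.18 and no member at an unadjusted p under 0.05. The summed level of the list was 28781, 38832, 32178 and 44592 normalized counts in AS animals and 33830, 46214, 38513 and 41741 in PS animals. AS mice 8 and 40 and PS mouse 2 were low, and the groups overlapped. Over the libraries left out in turn the median ran from -0.27 (without AS mouse 44) to -0.070 (without AS mouse 8), and in mice with DEX it was 0.082. Ugt8a, which makes the galactolipids of myelin, was at 228, 319, 282 and 352 against 322, 359, 326 and 393. In oligodendrocyte precursors 7 of 12 markers were higher, among them the sialidase Neu4, at 227, 214, 215 and 191 against 182, 160.5, 168 and 192 with an unadjusted limma p of 0.0057.

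All 13 pericyte and smooth muscle markers were higher in AS animals, with a median of 0.17 and none at an unadjusted p under 0.05. The median was 0.068 without AS mouse 40 and 0.29 without AS mouse 44. Myl9, a myosin light chain of smooth muscle, was at 440.5, 223, 411 and 307 against 213, 246, 311 and 237. Notch3, the receptor that maintains mural cells, was at 605, 394, 632 and 303 against 345, 372, 352 and 392.1. In both genes AS mice 8 and 40 were high, and AS mice 14 and 44 lay near the PS animals. The same 2 mice were the low ones in oligodendrocyte markers. Of 26 endothelial markers 21 were higher, with a median of 0.14 that was 0.028 without PS mouse 2, 0.038 without AS mouse 40 and 0.24 without AS mouse 14. The roundabout receptor Robo4 of endothelium was at 319, 136, 236 and 185 against 108, 156, 159.9 and 199.7, and the glucose transporter Slc2a1 of the blood-brain barrier at 2678, 2091, 2972 and 2813 against 1962, 2019, 2556 and 2615. In mice with DEX the AS minus PS medians were -0.22 for pericyte and smooth muscle and -0.26 for endothelial markers. The leptomeningeal fibroblast list had 15 of 19 markers higher and a median of 0.16, which was -0.059 without PS mouse 68 and 0.30 without PS mouse 2.

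The median of the microglia list depended less on single animals. Of 21 markers 19 were higher in AS animals, 2 had an unadjusted p under 0.05 and 3 did not overlap (of all genes, 3.04% and 2.86% in this direction), with a median of 0.11 that stayed between 0.083 and 0.15 over the libraries left out. Fcer1g, the signalling chain of Fc receptors, was at 169, 191, 184 and 188 in AS and 161, 130.1, 137 and 138 in PS animals. Selplg, the ligand of P-selectin, was at 803, 806, 787 and 846 against 758, 625, 622 and 644. Neither overlapped, and their differences were 0.37 (SE 0.15) and 0.30 (SE 0.11). The complement component C1qa did not overlap either, at 1186, 1071, 1123 and 1147 against 1036, 1059, 1010.5 and 938. With DEX the median of the microglia list was 0.12, and that of Fcer1g 0.47. MHC class II genes were higher in 6 of 6 cases, with no member at an unadjusted p under 0.05. Unlike the microglia list, their median of 0.21 ran from 0.056 (without PS mouse 68) to 0.38 (without PS mouse 62), and it was 0.054 with DEX.

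Astrocyte markers were higher in 15 of 18 cases, with a median of 0.080. Atp1b2, the adhesive beta subunit of the sodium pump in astrocytes, was at 14303, 14807, 16403 and 14122 against 12393, 12665, 12337 and 12567, and the neurotensin receptor Ntsr2 at 3106, 2878, 3254 and 3030.3 against 2701, 2609.8, 2540.3 and 2707. Neither overlapped, and Atp1b2 had a difference of 0.25 with saline and 0.21 with DEX. Mt3, the metallothionein of the brain, was at 5917, 5066, 5678 and 6346 against 4057, 4661, 5261 and 4161, a difference of 0.35 (SE 0.14) with overlap through AS mouse 14. Interneuron peptide and subtype markers were split, 11 of 19 being higher and 8 lower in AS animals, with a median of 0.078. In this list 2 were higher without overlap (2.86% of all genes were). One of them, Npy, was at 1866, 1839, 2055 and 2483 against 1646, 1766, 1607 and 1662, a difference of 0.29 (SE 0.16). Sst, at 3473, 3571, 3659 and 4838 against 3187, 3205, 3474 and 3572, and Pvalb, at 546, 610.4, 671 and 1128 against 517, 889, 825 and 767, both had their highest value in AS mouse 44. The GABA-synthesizing enzyme Gad1 differed by -0.065 (95% interval -0.41 to 0.28) and Slc17a7 by 0.077 (95% interval -0.068 to 0.22).

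**Figure D4:**
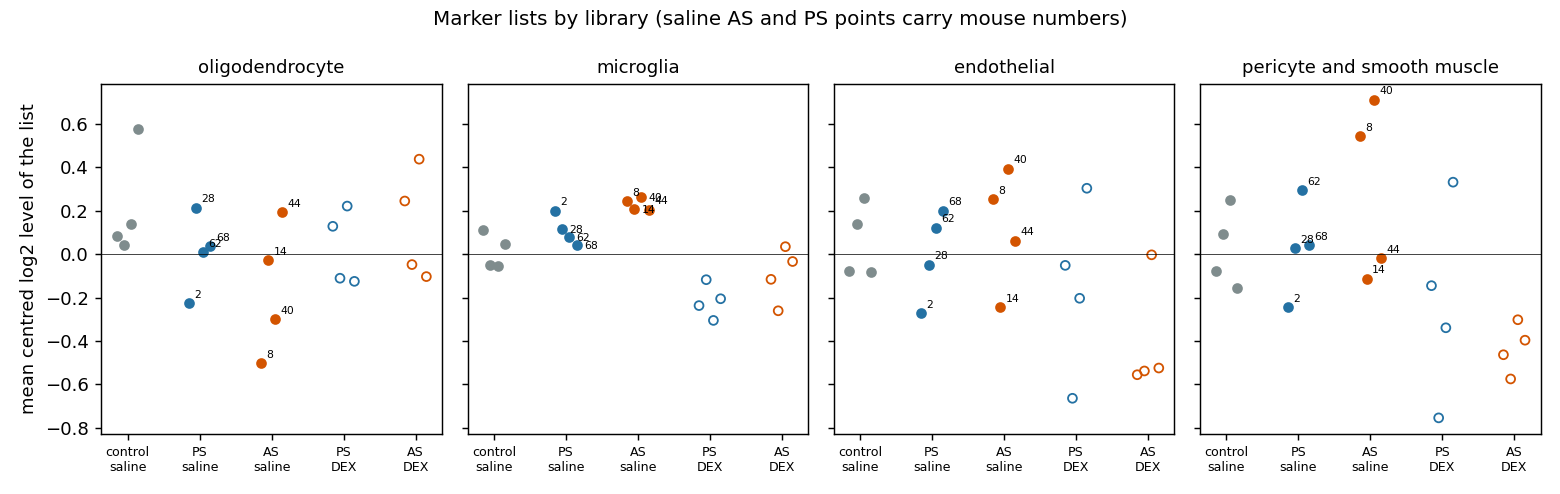
Mean level of 4 marker lists in each library (y axis, log2 scale, each gene centred on its mean over the 24 libraries), by group; filled points are saline and open points DEX, and mouse numbers are given for the saline AS and PS animals. AS mice 8 and 40 are low in oligodendrocyte markers and high in pericyte and smooth muscle markers, and the 4 AS animals lie close together in microglia markers.

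Ribosomal protein genes were split around 0. Of 80 cytosolic ribosomal protein genes 45 were higher and 35 lower, with a median of 0.010. Rps29 was the one with an unadjusted p under 0.05, at 1999, 1822, 2180.4 and 2839.6 in AS and 2975, 3110.4, 3405 and 2789 in PS animals, a difference of -0.49 (SE 0.15) in which AS mouse 44 overlapped PS mouse 68. Of the 77 nuclear genes of oxidative phosphorylation 32 were higher, and Ndufa1 of complex I was at 488, 439.7, 471 and 616 against 559, 702, 705 and 601. Of the 31 mitochondrially encoded genes 14 were higher, and mt-Atp8 was at 52.0, 64.1, 57.2 and 59.5 against 90.5, 95.9, 90.8 and 87.2, a difference of -0.64 (SE 0.22) with no overlap, while in mice with DEX it was -0.71.

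Ribosomal protein pseudogenes, in contrast, spread widely. Of 40 such loci, 25 were higher and 15 lower in AS animals, 8 of the former and 1 of the latter at an unadjusted p under 0.05 (all genes: 3.04% higher and 1.73% lower), with a median of 0.26. This direction held for the loci with few reads: among those with at least 10 reads in each library the median was -0.091, and among those averaging 100 normalized counts or more it was -0.22. Rps12-ps9 was at 9.45, 5.96, 12.3 and 21.0 in AS and 0, 2.34, 1.28 and 4.20 in PS animals, while controls were at 40.5, 34.4, 45.3 and 69.3. Its log2 difference of 2.27 (SE 0.48) thus came from a few reads per library. Rpl9-ps6 was at 95.7, 90.2, 57.2 and 123 against 53.5, 43.0, 35.8 and 35.7, a difference of 1.07 (SE 0.26). None of the 7 parent genes looked up by symbol had an unadjusted p under 0.05: Rps12 differed by 0.063 (unadjusted limma p 0.64), Rpl9 by -0.12 (p 0.33) and Pgam1 by 0.037 (p 0.61). Cbx3, the parent of Cbx3-ps6, came nearest at -0.13 (unadjusted limma p 0.052), lower in AS animals like its pseudogene. Of all 14074 genes 2.90% were pseudogenes by class or name, and of the 671 with an unadjusted p under 0.05 the share was 8.49% (57 genes).

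The same contrast of phenotypes was measured in 8 other mice, the AS and PS animals with DEX, which share no library with the saline comparison. There too, 0 of 14074 genes (0%) passed an adjusted p under 0.1, the smallest being 0.24, and 580 had an unadjusted p under 0.05; edgeR called 0 and DESeq2 4. For the difference between the 2 contrasts 0 genes (0%) passed in limma, 344 had an unadjusted p under 0.05, and DESeq2 and edgeR called 0 as well. The sign of the AS minus PS difference was the same with saline and with DEX for 54.2% of all genes and for 486 (72.4%) of the 671 genes with a saline p under 0.05. Of the 24 leading genes it was the same for 12 of 12 on the higher side and 11 of 12 on the lower side, Mtdh being the exception at 0.00027. Of the fitted sizes, Bicra was 0.13 (SE 0.069) with DEX against 0.36 with saline, Naa80 0.16 against 0.51, Banp 0.016 against 0.30 and Bod1l -0.051 against -0.35, whereas Gm15459 was -0.35 against -0.39 and Rpl9-ps6 1.07 against 1.07. These are values side by side, and no gene passed the test of their difference.

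With both contrasts averaged, which sets 8 AS against 8 PS animals, 19 genes (0.135%) passed an adjusted p under 0.1, of which 10 were higher and 9 lower in AS animals. With a pseudocount of 8 there were also 19, of which 7 were higher. By class or name 13 of the 19 were pseudogenes (68.4%), and 12 had a mean under 100 normalized counts. AS libraries were deeper at the median with both treatments. Library size was fitted as a covariate for the saline contrast only, so the part of depth in these calls was not tested. Gm15459 led with an average difference of -0.37 (limma adjusted p 0.0053), and Bicra was at 0.24 (limma adjusted p 0.058). Gm5526 followed at 1.65, Gm13577 was at -0.78 and the lncRNA genes Gm17750 and Gm49207 were at -0.95 and 1.76. Protein-coding by annotation were Bicra, Rpl9-ps6, Rps29 (-0.51) and Hcfc1r1, the regulator of the transcriptional cofactor HCFC1, which was named after its values were seen and differed by 0.31. Rps29 and Hcfc1r1 were the most abundant of the 19. All 19 had the same sign with saline and with DEX, and 15 did not overlap in the saline libraries (5.22% of all genes did not). The average includes these saline libraries and favours both, so neither count is further support. The number depended on the libraries: it was 74 without PS mouse 34 with DEX, 5 without PS mouse 2 or AS mouse 40 with saline, 6 and 7 without AS mouse 8 with saline and PS mouse 6 with DEX, and 9 to 12 without AS mouse 14 or PS mice 62 or 68 with saline or AS mice 38 or 72 or PS mouse 52 with DEX.

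**Figure D5:**
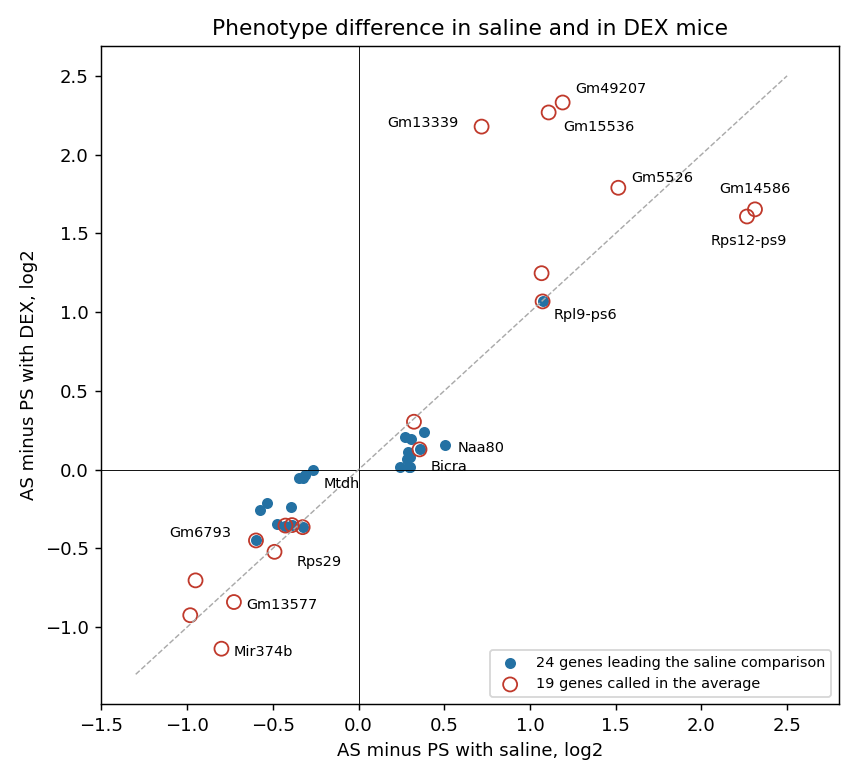
AS minus PS log2 difference with saline (x axis) and with DEX (y axis) of the 24 genes leading the saline comparison (filled) and of the 19 genes called in the average (open circles); the dashed line marks equal values. Gm15459, Gm6793 and Rpl9-ps6 lie near the line and Gm13339 (0.72 with saline, 2.18 with DEX) and Gm15536 (1.11 and 2.27) above it, while Rps12-ps9 and Gm14586 lie below it, and Bicra, Naa80 and Mtdh lie nearer to 0 with DEX than with saline.

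Mir374b was among the 19, and it too was named after its values were seen. Its row counts reads over the hairpin gene at chrX:103573060-103573154 on the minus strand, inside the lncRNA gene Ftx on the same strand, so that reads of the 2 cannot be told apart, and libraries of long poly(A) RNA do not measure mature miRNAs. It was at 14.2, 26.8, 22.5 and 14.9 in AS and 33.1, 28.1, 34.5 and 39.9 in PS animals, a difference of -0.80 (SE 0.28) with saline and -1.14 (SE 0.28) with DEX, while Ftx itself was at -0.07 (SE 0.12) with saline. The 2 arms that the hairpin gives rise to are printed from RefSeq (GRCm38.p6) with the seed, bases 2 to 8, in capitals.
mmu-miR-374b-5p, chrX:103573112-103573133: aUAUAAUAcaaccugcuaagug
mmu-miR-374b-3p, chrX:103573075-103573096: gGUUGUAUuaucauuguccgag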

How the data were processed

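The sample labels put the PFC libraries of 24 mice, 1 from each, into 6 groups of 4. Mouse numbers do not recur across groups, and samples were not paired. The authors trimmed reads with fastp 0.20.1, aligned them to mm10 (GRCm38) with HISAT2 2.2.1, assigned them with featureCounts (Subread 2.0) to the genes of GENCODE vM22 and normalized them in DESeq2 1.36.0; the strand setting of the counting is not given in the sources used here. The deposited signal values are read counts after division, by the authors, by a size factor of the library. Within a tolerance of 0.01 read, 100% of the values were whole multiples of 1 read, so reads were recovered for the count models. The deposited tables of fold changes and p-values of the authors' comparisons were not used.

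A linear model with trended empirical Bayes moderation (limma 3.58.1, R 4.3.3) was fitted to log2(normalized count + 1) of all 14074 genes and 24 libraries, with one mean per group and Benjamini-Hochberg adjustment, and genes were called at an adjusted p under 0.1. The p-values set a difference of group means against the spread between mice within groups, which was estimated over all 6 groups together and moderated across genes. Single genes were also given an exact permutation test of 4 against 4 libraries. Alternatives were a pseudocount of 8, filters at a mean of 100 normalized counts or at 10 reads in each library, quantile normalization, fits on 8 or 16 libraries, library size as a covariate, library weights, edgeR 4.0.16 and DESeq2 1.42.0 on recovered reads, edgeR on thinned reads, and libraries left out. The code of the fits was checked on simulated counts with seeded changes and no outlying library, which does not test the calls made here.

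The genes named were the 12 higher and the 12 lower genes with the smallest p among those averaging 50 normalized counts or more and without overlap, genes called by DESeq2 or (up to 10) in the average over saline and DEX, the 2 genes with the smallest p of each of 47 lists, 12 genes of stress and neuron biology, and the 3 highest and 3 lowest differences at a mean of at least 10. The members and lists were chosen with earlier results of these data known. List members were counted, and no set test was run. A few genes that the rule names are not reported here.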

Additional observations from a re-analysis of the deposited data

Results flagged for a closer look

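In 258 groups of 4 libraries (each named gene that is reported here, in the AS and in the PS animals with saline) the highest or lowest library was compared with its group, and 10 (3.88%) lay further from the other 3 than Dixon's test allows at the 95% level, where chance flags about 1 in 20. In AS mouse 44, Rab10os was lowest at 579 normalized counts (median of the other 3 animals 835), Arl4d highest at 299 (250.3) and Sst highest at 4838 (3571). In AS mouse 14, Gad1 was highest at 9223 (7007), Epha5 highest at 2948 (2319) and Pnoc lowest at 183 (216). Gm24187 was lowest in AS mouse 40 at 17.0 (88.3). In PS mouse 2, Arl4d was lowest at 175 (227) and Lipt1 lowest at 150.3 (163), and Syn1 was highest in PS mouse 68 at 24595 (23068). Arl4d and Lipt1 did not overlap between the phenotypes, whereas Sst and Gad1 did.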

How the results depend on the processing

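The number of genes called between AS and PS animals with saline was 0 in limma and 11 with DESeq2 on recovered reads, 1 with edgeR on thinned reads, 13 with library weights, 1 without AS mouse 44 and PS mouse 2 (chosen after seeing the data), and 0 to 5 over the libraries left out in turn, the 5 being without AS mouse 44. It was 0 under the other settings. With DEX the number was 4 with DESeq2. In the average over saline and DEX it was 72 with DESeq2 and 10 on only the 16 libraries of stressed mice, and 5 to 74 over the libraries left out. The number of genes with an unadjusted p under 0.05 with saline was 671 in limma, 1035 on only the 8 libraries compared, 1704 with library weights, 451 without PS mice 2 and 62 and 421 to 1141 over the libraries left out. With edgeR's scaling 55.6% of these genes were higher in AS animals, against 63.8% in limma.

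Of the 134 named genes, 8 changed direction in some setting and 15 were called in some setting. Leaving out each library in turn gave log2 differences from -0.092 to 0.071 for Fkbp5, -0.11 to 0.033 for Nr3c2, -0.13 to 0.12 for Crh, -0.073 to 0.49 for Fos, -0.28 to 0.073 for Pvalb, -0.17 to 0.051 for Gad1 and -0.11 to 2.55 for Eomes. Without AS mouse 44 and PS mouse 2 the differences were -0.067 for Hsd11b1, -0.060 for Fkbp5, 0.025 for Nr3c2, -0.022 for Crh, -0.048 for Fos and 0.080 for Gad1. Library weights gave -0.031 for Fkbp5, -0.058 for Crh and -0.069 for Fos, and the fits without PS mice 2 and 62 gave -0.18 for Crh and 0.026 for Gad1. Crh was -0.0017 with edgeR and -0.000665 on thinned reads. The medians of 24 of the 47 lists changed sign in some setting. The cause of these changes was not tested. No paired analysis was possible because the groups share no mouse number.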

Other observations

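The remaining lists gave no member with an adjusted p under 0.1. Interferon response genes were lower in 14 of 21 cases, with a median of -0.038 (0.038 without PS mouse 2 and 0.026 without AS mouse 14). Border macrophage markers were higher in 4 of 5 cases, with a median of 0.20 that was 0.059 without AS mouse 40, 0.37 without AS mouse 44 and 0.0025 with DEX, and Lyve1, a hyaluronan receptor, was at 57.9, 49.9, 63.3 and 49.0 normalized counts in AS animals against 54.8, 35.1, 39.6 and 31.5 in PS animals. Cholesterol synthesis and uptake genes were higher in 16 of 26 cases, with a median of 0.022, and Dhcr7, the last enzyme of one branch of the pathway, did not overlap, at 790.0, 870.5, 824 and 782 against 747, 735, 749.6 and 757. MAPK feedback genes were split 8 to 9, and heat shock genes 12 to 12, Hsf1, the master regulator of the heat shock response, being at 1196, 1090.4, 1134 and 1150.0 against 911, 975, 958 and 1095. Blood genes had a median of -0.17, which was 0.020 without AS mouse 14, the animal with the lowest values (Hbb-bs at 545.5), and -0.44 without AS mouse 8. Olfactory bulb markers were higher in 7 of 8 cases, with a median of 0.29 that was -0.33 without AS mouse 14, -0.19 without PS mouse 68 and 0.82 without PS mouse 2; with DEX 0 of the 8 were higher.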
